A study of Zea mays with 12 samples.

Results

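A set of 150 gene models shared an unusual course through maize kernel development: they were expressed in whole kernels, low in endosperm at 7 days after pollination (DAP), expressed again in endosperm at 10 DAP, and low again at 15 DAP. They were taken from 108342 models by a rule on the authors' normalised signal, in which each library's counts are scaled to its size (RPM) with trimmed mean of M-values (TMM) factors. In each cross a score was the log2 of the lowest signal at 0, 3, 5 and 10 DAP plus 1, divided by the higher signal at 7 and 15 DAP plus 1. The 150 largest values of the lower of the 2 cross scores were kept, where that score was above 1 and the 10 DAP signal was at least 0.25 of the lower of the 3 and 5 DAP signals in both crosses. All the conditions except the size of the set were met by 184 models. A model with no counts in either 15 DAP library and a mean of at least 5000 counts at 10 DAP would have been dropped, and no model that otherwise qualified was of that kind. The members were thus chosen by their signal at all 6 ages in both crosses. The fall to 7 DAP, the return at 10 DAP and the fall to 15 DAP are part of that choice and are described here without a test.

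RNA was sequenced from reciprocal crosses of the inbred lines B73 and Mo17. BxM stands for B73 as the mother with Mo17 pollen and MxB for Mo17 as the mother with B73 pollen. Whole kernels were sampled at 0 DAP, before pollination, and at 3 and 5 DAP, and endosperm was sampled at 7, 10 and 15 DAP. At 0 DAP no pollen had contributed, so the libraries labelled BxM and MxB compare the 2 mothers. There was 1 library per cross and age, 12 in all, and the 3 groups of plant material that the labels mention for each were not separate columns here. The libraries up to 10 DAP held 59378582 to 70930121 counts, and those of 15 DAP held 35401314 in BxM and 39864984 in MxB. Where a model had no counts, up to 3 remain possible, or a signal of 0.0455 and 0.0451 at 7 DAP and of 0.142 and 0.108 at 15 DAP in BxM and MxB. This floor covers counting error only. Below, 6 signals in a row stand for 0, 3, 5, 7, 10 and 15 DAP.

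A maize kernel wraps tissues of different parentage around each other. The pericarp comes from the ovary wall and the nucellus from the ovule, so both carry the mother's genome alone, and the nucellus is consumed as the endosperm expands. The endosperm arises from fertilisation of the central cell, holds more copies of the maternal than of the paternal genome, and forms a transfer layer at its base, a region around the embryo, an aleurone layer and a starchy interior. Before pollination a kernel holds the maternal tissues and no endosperm, later kernels hold both kinds, and dissected endosperm is meant to hold the endosperm alone. In bulk RNA, fewer cells of a type and less RNA per cell cannot be told apart.

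The members as a set fell to a median signal below 1 at 7 DAP and then regained much of their kernel level. Their median signal was 14.03, 27.8, 19.6, 0.910, 10.1 and 0.331 in BxM and 12.7, 19.6, 19.1, 0.707, 14.6 and 0.376 in MxB. Together they held 0.822%, 0.999%, 0.916%, 0.0494%, 0.313% and 0.0284% of all counts in BxM, and 0.810%, 0.833%, 0.962%, 0.0489%, 0.416% and 0.0347% in MxB. The highest signal of any member at 7 DAP was 58.0 in BxM and 77.3 in MxB, so not every member was near 0. Within each cross the summed share at 10 DAP lay between the kernel libraries and the other endosperm libraries. At 7 DAP 3 members had no counts in each cross, and at 15 DAP 44 had none in BxM and 33 in MxB. At the floor or under it were 10 and 12 members at 7 DAP and 59 and 44 at 15 DAP, in BxM and MxB. Most members were thus still counted at 7 DAP (medians of 60 and 47 counts), while at 15 DAP the medians were 7 and 10.5 counts in libraries of lower total. The sampled tissue changes between 5 and 7 DAP together with age, and the 2 cannot be told apart there, whereas 7, 10 and 15 DAP are labelled as the same tissue.

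**Figure D1:**
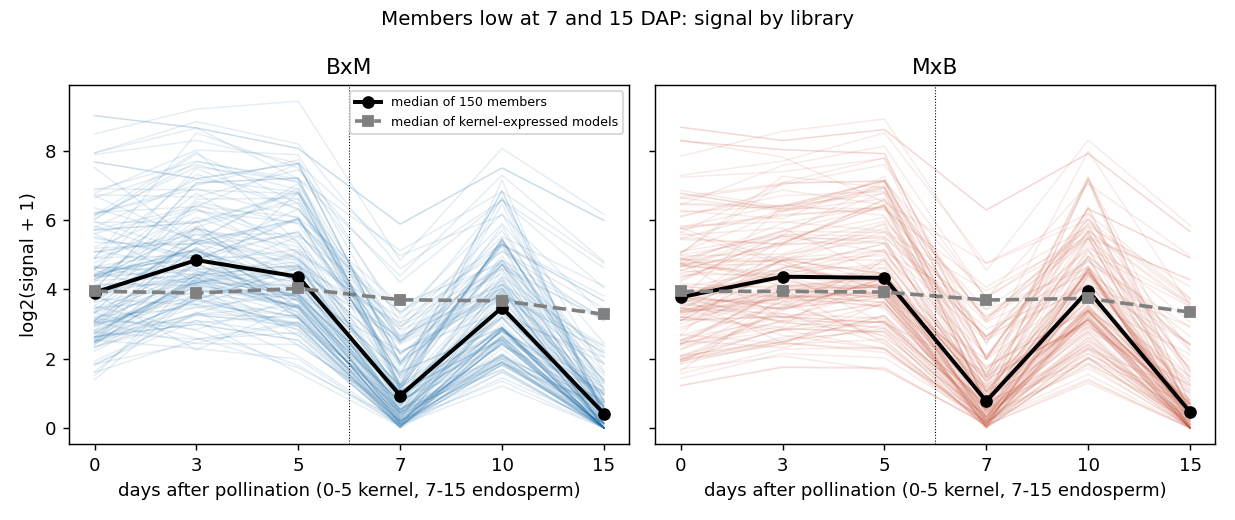
Signal of the 150 members by age in BxM (left) and MxB (right), on a log2(signal + 1) axis, with 1 line per model. The black line is the members' median and the dashed grey line the median of all 22655 models with a signal of at least 1 in every kernel library. The dotted line marks the change from whole kernels to endosperm, and the black line drops at 7 and 15 DAP and nearly meets the grey line at 10 DAP.

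The pattern was a small part of what was lost at the change to endosperm. Of 14461 models with a signal of at least 5 in all 6 kernel libraries, 1430 (9.89%) stood at 0.25 or less of their lowest kernel level at 7 DAP in both crosses. Of those 1430, 1097 were as low at 15 DAP too. Among these 1097 models, 181 (16.5%) were back above 0.25 of the kernel level at 10 DAP in both crosses, and 693 (63.2%) stayed at or below it in both. The members include 80 of the 181. The opposite course, with high signal at 7 and 15 DAP and low signal at the other ages under the same score, was found in 11 models. Of 41740 models whose counts summed to at least 100, 368 (0.882%) had a score above 1 with no condition on the level at 10 DAP.

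The scores ran from 5.40 for GRMZM2G444748 to 1.12 for GRMZM2G130149. Just inside the limit of 150 were GRMZM2G015314, GRMZM2G026523 and GRMZM2G130149, all at 1.12, and just outside it were GRMZM2G003466, GRMZM2G161809 and GRMZM2G078566, all at 1.11. At the condition on 10 DAP, AC212068.4_FG005 at 0.251 of the kernel level and GRMZM2G004511 and GRMZM2G063133, both at 0.255, were just inside. GRMZM2G093809 and GRMZM2G057086, both at 0.249, and GRMZM5G853948 at 0.248 were just outside. The edge of the set is therefore arbitrary, and models on either side of it differ little.

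Of the members, 109 matched the gene table and all 109 were protein-coding there, while 24 had a gene name. That table belongs to the assembly Zm-B73-REFERENCE-NAM-5.0, and the files may use another build. Counts within 15% or 5 counts of each other in every library tied 28 members into 14 groups of 2, so the 150 models stand for 136 distinct measurements. Among all members, only GRMZM2G091044 and GRMZM2G004748 neighboured each other in the table without sharing their counts. The named members divide into 10 transcription factors, 7 genes of hormone response and signalling, 4 genes of enzymes, and 3 whose names (ACR4, SAG and AGP2) were not clear enough to give a role.

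Among the transcription factors, m1 (GRMZM2G010669) had the largest score. It belongs to the MADS-box family, whose members specify floral organs and ovules. Its signal was 237, 315, 199, 2.62, 56.3 and 0.708 in BxM and 150.1, 168, 219, 1.82, 138 and 0.179 in MxB. At 10 DAP m1 stood at 28.3% of the lower of its 3 and 5 DAP levels in BxM and at 82.1% in MxB. LOB14 (GRMZM2G044902), of the LOB-domain family known from organ boundaries, gave 71.2, 119, 65.5, 1.17, 18.8 and 0.567 in BxM and 86.8, 80.1, 80.01, 0.481, 34.8 and 0.143 in MxB. YAB5 (GRMZM2G116646), of the YABBY family that acts in the polarity of leaves and carpels, gave 51.4, 59.7, 89.6, 2.72, 15.8 and 0.378 in BxM and 43.1, 76.7, 122, 1.79, 38.95 and 1.90 in MxB. For m1, LOB14 and YAB5 the signal at 10 DAP was higher in MxB than in BxM, and below the 5 DAP signal in both crosses.

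bZIP84 (GRMZM2G361611), a basic leucine zipper factor, did not follow that order: its highest signal of all ages was at 10 DAP. It read 11.7, 40.4, 64.4, 1.88, 114 and 0.283 in BxM and 22.4, 39.9, 85.8, 0.707, 144 and 0.609 in MxB. The model GRMZM5G868590 carried nearly the same counts, so the pair is 1 measurement. MYB59 (GRMZM2G130149), whose name the table gives to several loci, was also highest at 10 DAP, with 2.58, 4.50, 7.18, 0.652, 14.3 and 0.378 in BxM and 3.86, 7.58, 17.9, 0.406, 19.1 and 0.645 in MxB. HB84 (GRMZM2G099319), of the homeobox family, gave 9.01, 17.3, 24.5, 0.455, 4.81 and 0.0944 in BxM and 4.75, 14.04, 16.1, 0.0301, 5.07 and 0 in MxB. The Dof zinc-finger factor dof3 (GRMZM2G179069) gave 10.01, 12.2, 6.59, 0.0607, 3.23 and 0.0944 in BxM and 9.92, 8.83, 4.37, 0.0903, 5.15 and 0.0717 in MxB. Although dof3 stood on the list of endosperm regulators, it was lowest at 7 and 15 DAP, while the summed signal of that list was between 3491 and 14785 in the 6 endosperm libraries and between 35.1 and 111 in the 6 kernel libraries. The other transcription factors among the members were WRKY42, bZIP9 and GRAS19, with signals at 10 DAP from 1.64 (GRAS19 in MxB) to 7.95 (bZIP9 in MxB).

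**Figure D2:**
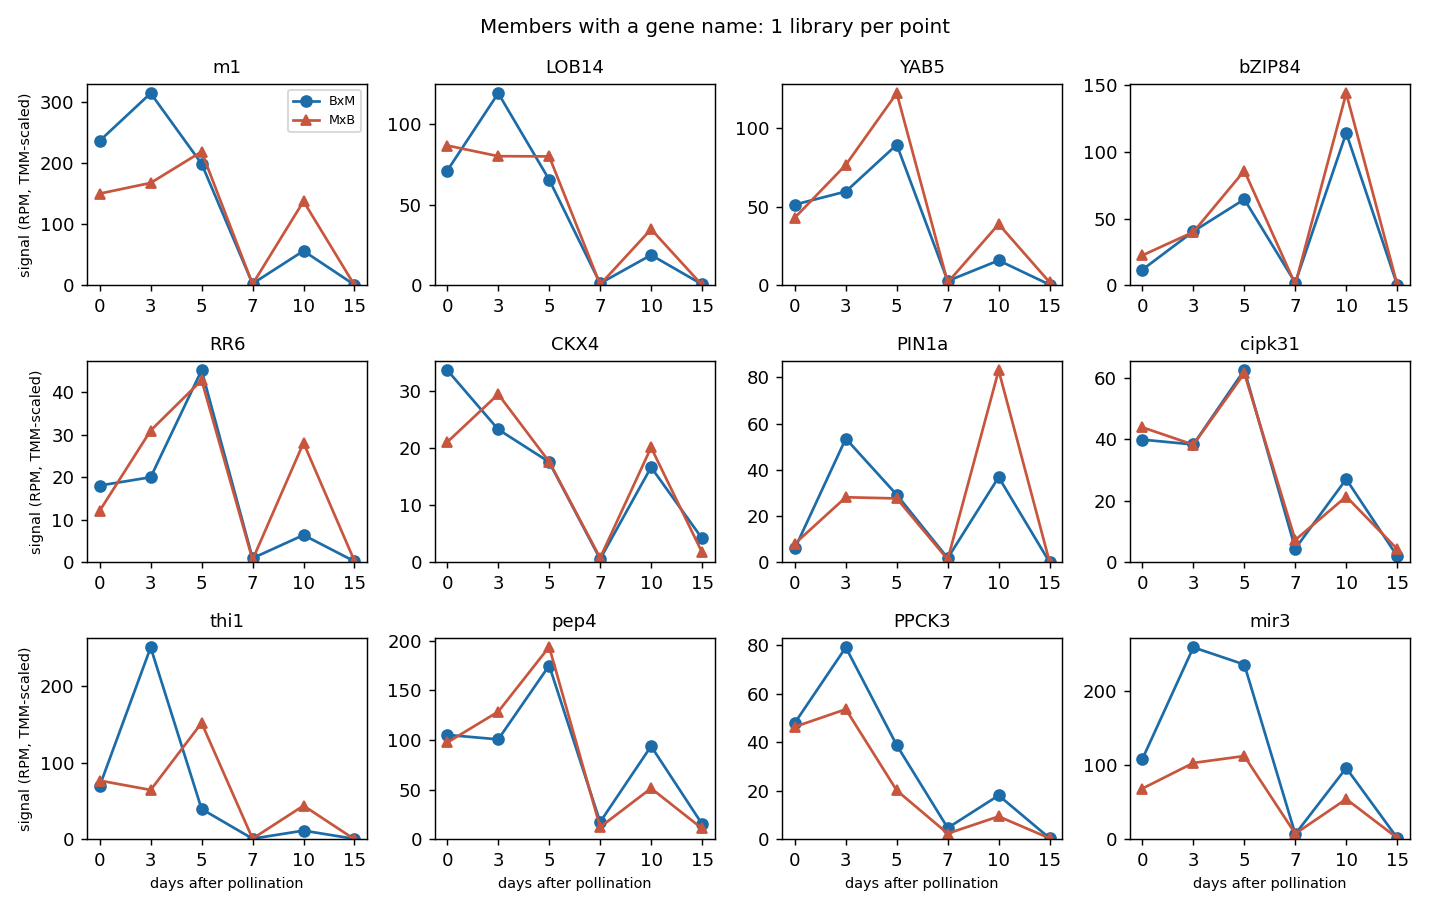
Signal (RPM with TMM scaling, linear axis from 0) of 12 members with a gene name, by age, with 1 library per point, blue circles for BxM and red triangles for MxB. Most panels fall to near 0 at 7 and 15 DAP with a return at 10 DAP that is partial, while bZIP84 reached 114 and 144 at 10 DAP, its highest values.

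The members of hormone pathways include both a carrier of auxin and parts of the cytokinin response. PIN1a (GRMZM2G098643), an efflux carrier that moves auxin out of cells, gave 6.00, 53.6, 29.2, 1.84, 36.9 and 0.0472 in BxM and 8.08, 28.2, 27.7, 1.28, 83.1 and 0.143 in MxB. In MxB its 10 DAP signal was its highest, and in BxM the 3 DAP signal was. Of the 6 other PIN models tested, a family chosen after its values were seen, 3 were lower at 7 than at 5 DAP by edgeR's quasi-likelihood test (adjusted p under 0.05), where 14.8% of all models tested were lower. At 10 against 7 DAP 1 of the 6 was higher, where 2.83% of all models were, and at 15 against 10 DAP 2 were lower, where 14% were. Among so few models these counts are given as a description. CKX4 (GRMZM5G817173), a cytokinin oxidase that breaks cytokinin down, gave 33.7, 23.3, 17.6, 0.577, 16.7 and 4.20 in BxM and 21.1, 29.5, 17.6, 0.782, 20.1 and 1.76 in MxB. Its 10 DAP level lay close to its 5 DAP level in both crosses. RR6 (GRMZM2G129954), a response regulator of the cytokinin pathway, gave 18.1, 20.04, 45.2, 0.971, 6.43 and 0.236 in BxM and 12.1, 31.03, 42.9, 0.632, 28.1 and 0.323 in MxB, so that the crosses were near each other at 5 DAP and apart at 10 DAP. In the family of cytokinin oxidases, receptors and response regulators, also chosen after its values were seen, 10 of the 15 other models tested were lower and 1 higher at 7 than at 5 DAP, against 14.8% and 10% of all models. At 10 DAP 5 were higher than at 7 DAP, against 2.83%, and at 15 DAP 4 were lower and 1 higher than at 10 DAP, against 14% and 3.73%. Other families with named members, chosen the same way, were also tested at 10 against 7 DAP. Besides the members, 0 of 7 LOB-domain, 0 of 26 bZIP and 1 of 16 WRKY models were higher at 10 DAP. Among SnRK2 kinases 3 of 6 were higher, and among phosphoenolpyruvate carboxylases and their kinases 0 of 4. The SnRK2 kinases did not share the fall to 15 DAP: 0 of the 6 were lower and 1 was higher than at 10 DAP, against 14% and 3.73% of all models.

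The signalling members described next stood below their 5 DAP level at 10 DAP. The remorin gene GRMZM2G004511 codes for a protein of plasma membrane microdomains and gave 53.95, 144, 111, 1.21, 30.2 and 1.56 in BxM and 74.2, 83.7, 108, 1.70, 21.3 and 0.358 in MxB. The calcium signalling kinase cipk31 (GRMZM2G174896) gave 39.9, 38.3, 62.6, 4.48, 27.1 and 2.03 in BxM and 43.9, 38.3, 61.5, 7.28, 21.4 and 4.34 in MxB, with both 10 DAP values between those of 7 and 5 DAP. SnRK2.1 (GRMZM2G035809), of a kinase family of osmotic stress and abscisic acid signalling, was highest at 0 DAP in both crosses, with 7.33, 4.39, 4.32, 0.303, 2.21 and 0 in BxM and 12.4, 4.53, 3.52, 0.301, 2.32 and 0.0358 in MxB.

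The enzyme members include both parts of one regulatory pair. The gene named pep4 (GRMZM2G473001) codes for a phosphoenolpyruvate carboxylase, which fixes bicarbonate onto phosphoenolpyruvate, and gave 105, 101, 175, 17.5, 93.9 and 15.6 in BxM and 97.6, 129, 194, 12.5, 51.5 and 11.04 in MxB. PPCK3 (GRMZM2G096753), of the kinases that phosphorylate that enzyme, gave 48.00, 79.1, 38.8, 4.73, 18.1 and 0.519 in BxM and 46.4, 53.6, 20.2, 2.44, 9.47 and 0.466 in MxB. Both were higher in BxM than in MxB at 10 DAP, the reverse of m1, LOB14, YAB5, PIN1a and RR6. The other 4 models of these carboxylases and kinases, a family chosen after its values were seen, were no members and did not move alike. The carboxylase pep7 read 270.4 and 262 at 5 DAP and 267 and 265 at 7 DAP, in BxM and MxB. The kinase PPCK1 read 21.7 and 19.2 at 5 DAP and 8.74 and 9.12 at 7 DAP, with 9.35 and 8.95 at 10 DAP. Summed over all 6 models, pep4 and PPCK3 included, the signal was 308 and 298 at 7 DAP and 564 and 534.5 at 10 DAP. That rise was larger than pep4 and PPCK3 account for, although 0 of the other 4 were called higher at 10 DAP.

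thi1 (GRMZM2G018375), which makes the thiazole part of thiamine, gave 69.7, 250.3, 39.7, 0.941, 11.5 and 0.755 in BxM and 76.7, 64.5, 152, 1.04, 43.99 and 0.251 in MxB. Its order of 3 and 5 DAP was opposite in the 2 crosses. mir3 (GRMZM2G166281), a cysteine protease, gave 109, 259, 236, 7.21, 96.4 and 2.08 in BxM and 68.7, 103, 112, 7.76, 54.4 and 2.11 in MxB.

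Most of the members with the largest scores had no gene name. GRMZM2G444748, first in score, gave 115, 208, 135, 1.41, 101 and 0.283 in BxM and 115, 82.2, 128, 0.617, 80.9 and 0.430 in MxB, and GRMZM2G444743, second in score, carried nearly the same counts. GRMZM2G007939 gave 119, 116, 108, 1.68, 40.4 and 2.64 in BxM and 54.4, 86.6, 69.2, 1.49, 149 and 1.58 in MxB, and GRMZM2G052422 gave 17.5, 87.6, 41.00, 0.683, 19.3 and 0.378 in BxM and 32.8, 74.6, 119, 1.81, 150.3 and 0.287 in MxB. In both of these models the 10 DAP signal was above every kernel value in MxB and below the 3 and 5 DAP values in BxM. GRMZM2G129019, sixth in score, gave 13.1, 47.6, 17.8, 0.212, 10.7 and 0 in BxM and 13.6, 20.7, 20.95, 0.0903, 15.1 and 0 in MxB. The remaining unnamed models among the 20 largest scores were GRMZM2G131611, GRMZM2G091044, GRMZM2G162768, GRMZM2G077233, GRMZM2G126749, GRMZM2G166370, GRMZM2G133175, GRMZM2G423129, GRMZM2G086766 and GRMZM2G019317. Their signals at 10 DAP lay between 4.60 (GRMZM2G133175 in BxM) and 51.0 (GRMZM2G166370 in BxM), and at 7 DAP between 0.0152 (GRMZM2G133175 in BxM) and 7.31 (GRMZM2G077233 in MxB).

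The return at 10 DAP was partial for most members and overshot for a few. The median ratio of the 10 to the 5 DAP signal, with 1 added to both, was 0.488 in BxM and 0.616 in MxB, and against 3 DAP it was 0.387 and 0.681. The rule bounds the 10 DAP signal only against the lower of the 3 and 5 DAP signals, and sets no upper bound. In BxM 20 members were above their 5 DAP level at 10 DAP, and in MxB 29 were. For 6 members the 10 DAP signal was the highest of all ages in both crosses, which makes 5 distinct measurements: bZIP84 with the model that shares its counts, MYB59, GRMZM2G401848, GRMZM2G381576 and GRMZM2G453772. GRMZM2G381576 gave 20.5, 34.5, 15.7, 1.35, 38.8 and 1.46 in BxM and 9.62, 27.8, 30.4, 3.29, 49.8 and 0.502 in MxB. Other members were highest at 10 DAP in one cross alone. Among them GRMZM2G031317, chosen here after its values were seen, reached 142 at 10 DAP in BxM, above its other 11 values of 0.0472 to 20.3, and read 4.74 at 10 DAP in MxB.

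**Figure D3:**
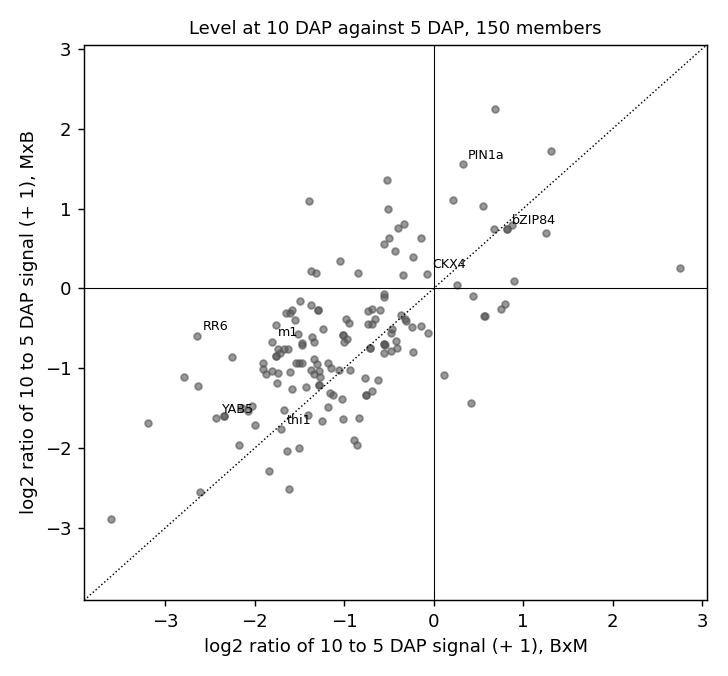
The log2 ratio of the 10 to the 5 DAP signal (with 1 added to both) in BxM on the horizontal axis and in MxB on the vertical axis, for the 150 members, with 7 named ones marked. Points below 0 returned to less than their 5 DAP level, and most points lie there and above the dotted line of equal ratios, as the medians of 0.488 and 0.616 state.

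Within the kernel stages the members differed in when they peaked. In BxM the highest signal came at 3 DAP for 82 members and at 5 DAP for 38, while 18 were highest before pollination and 12 at 10 DAP. In MxB the order was different, with 67 members highest at 5 DAP and 34 at 3 DAP, while 26 were highest before pollination and 23 at 10 DAP. The age of the highest signal was the same in both crosses for 72 members. From 0 to 3 DAP, a step whose direction the rule did not fix beyond asking for expression at both ages, the median log2 change of the members in the edgeR fit of all 12 libraries was 0.79, with 120 of 150 above 0, against a median of -0.06 over all models tested. Only GRMZM2G118241 passed the threshold of 0.05 (log2 fold change 2.81, SE 0.453, edgeR adjusted p = 0.0401), where 0.531% of all models were higher at 3 DAP and 0.0173% were higher at 0 DAP. It gave 7.69, 54.9, 96.98, 1.14, 15.1 and 0 in BxM and 12.2, 83.97, 141, 0.572, 23.1 and 0.0717 in MxB, with both 3 DAP values above both 0 DAP values. At an unadjusted p under 0.05 were 43 members (28.7%) against 14.8% of all models, and DESeq2 called 27 members higher and 0 lower at 3 DAP, against 3.81% and 0.968% of all models. The members were chosen for signal at both ages in both crosses, with median counts of 1244.5 to 1752.5 in these libraries. All models tested were not matched to them in this, so the higher shares are a description and no result about the set. The edgeR count rests on single libraries: it was 0 without BxM at 0 DAP, MxB at 0 DAP or BxM at 3 DAP, 20 without MxB at 3 DAP, and 4 with no filter on low counts. The p-values measure how alike the 2 crosses behaved and not the spread between plants of one cross.

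From 3 to 5 DAP the edgeR test called 0 members, where 0.0129% of all models were higher at 5 DAP and 0% were higher at 3 DAP. At an unadjusted p under 0.05 were 16 members (10.7%), against 9.98% of all models. DESeq2 called 3 members higher and 5 lower at 5 DAP, against 1.1% and 0.816% of all models. Beneath that average the crosses moved in opposite directions: the median log2 change was -0.47 in BxM and 0.16 in MxB, against 0.0039 and 0.0015 for the 22655 models expressed in kernels. In BxM 100 members had a lower value at 5 than at 3 DAP and in MxB 92 had a higher one, and 52 members did both, thi1 among them. These counts were not taken over the models expressed in kernels and describe the members alone. The difference between the crosses in this step was not tested. The library of BxM at 3 DAP also stood apart in the 9 core histone models, whose summed signal was 4650 there and 2849 in MxB at 3 DAP, against 1669 to 1972 in the kernel libraries of 0 and 5 DAP. Its part in the result was not tested.

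The crosses differed in opposite directions at 3 and at 10 DAP. The members' median log2 ratio of BxM to MxB at 0, 3, 5 and 10 DAP was -0.05, 0.41, -0.14 and -0.41. Over the 22655 models expressed in kernels the medians were -0.03, -0.00, 0.07 and -0.04. At 3 DAP 113 of 150 members were higher in BxM, and at 10 DAP 110 were higher in MxB. Of the latter 33 were at least 2-fold higher in MxB, while 6 members were at least 2-fold higher in BxM. For the models expressed in kernels only the medians were taken and not these counts, so the counts describe the members alone. Whether the ratio at 10 DAP differed from that in kernels was tested gene by gene as an interaction, and edgeR called 0 members and 0% of all models. The members' median interaction was -0.61 with 113 of 150 below 0, against a median of -0.01 over all models, and 18 members (12.0%) had an unadjusted p under 0.05, against 10.1% of all models. DESeq2 called 1 member in each direction, against 1.38% and 1.7% of all models. In m1, YAB5 and RR6 the log2 ratio was 0.90, -0.36 and -0.61 at 3 DAP and -1.27, -1.25 and -1.97 at 10 DAP. Between these 2 ages all 3 thus moved towards MxB, but only m1 changed direction. In the same order the log2 ratio was 0.65, 0.25 and 0.54 at 0 DAP and -0.14, -0.45 and 0.08 at 5 DAP. Against 0 DAP all 3 changed direction, and against 5 DAP only RR6 did. With 1 library per cross at 10 DAP there was no replicate library to set this against.

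**Figure D4:**
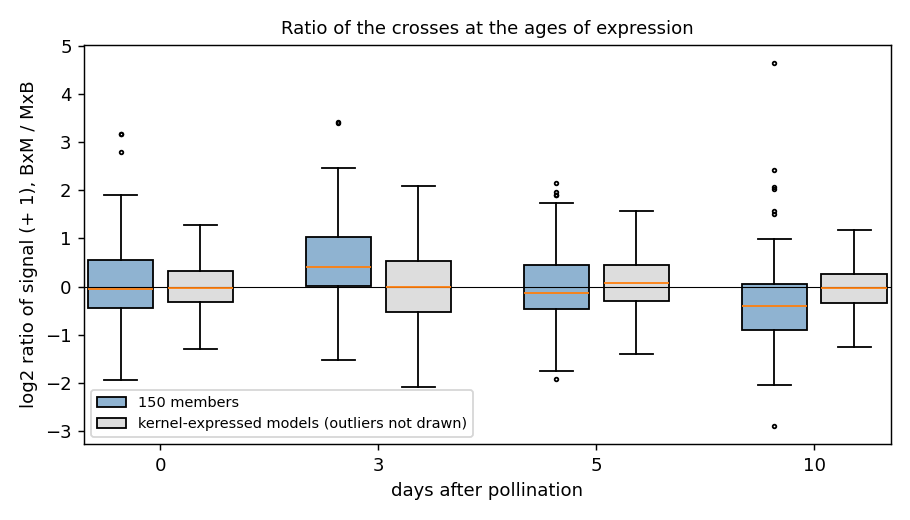
The log2 ratio of BxM to MxB (signal + 1) at the 4 ages of expression, for the 150 members (blue) and all 22655 models with a signal of at least 1 in every kernel library (grey). Boxes span the quartiles with the median as a line, whiskers reach at most 1.5 box lengths, and outlying points are drawn for the members only. The blue box lies above 0 at 3 DAP and mostly below 0 at 10 DAP, with medians of 0.41 and -0.41.

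Across the 136 distinct measurements the ratio at 5 DAP correlated with that at 10 DAP at a Pearson r of 0.581 (rank correlation 0.472), against 0.306 (rank correlation 0.254) over the models expressed in kernels. For 3 with 5 DAP r was 0.365 in the members and 0.244 in the kernel models. The ratio at 0 DAP correlated less in the members than in the kernel models with that at 3 DAP (0.372 against 0.521) and at 5 DAP (0.350 against 0.557). The ratio at 10 DAP gave nearly the same r in both with that at 0 DAP (0.232 against 0.2345) and at 3 DAP (0.322 against 0.325). These are descriptions across genes, which share their libraries and are not independent replicates. The same cross was higher at 0, 3 and 5 DAP in 53 members, and at 10 DAP it was still the same in 36 of them and the opposite in 17. Members with nearly the same counts were counted separately here, unlike in the 136 distinct measurements. No such counts were taken over the models expressed in kernels. Whether the members kept the same cross more often than other models therefore cannot be said.

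A steady difference of the crosses over the 3 kernel ages was tested with age as a term in the 6 kernel libraries. The edgeR test called 7 members higher in BxM, where 5.87% of all models were, and 2 higher in MxB, where 5.59% were. At 4.67% and 1.33% of the members these shares were near or under the background, and the counts are no result about the set. DESeq2 called 13 and 2, against 7.65% and 7.87% of all models. The largest difference was in GRMZM5G848622 (log2 3.19, SE 0.547, edgeR adjusted p = 0.02235). Its counts were nearly those of GRMZM2G037685 (log2 3.16, SE 0.549, edgeR adjusted p = 0.0231), which gave 20.02, 34.6, 8.03, 0.0910, 6.24 and 0 in BxM and 1.35, 2.40, 2.35, 0.0602, 1.57 and 0 in MxB. GRMZM2G453772 differed by a log2 of 2.56 (SE 0.377, edgeR adjusted p = 0.0158), with 19.5, 22.2, 15.7, 0.364, 25.7 and 0.519 in BxM and 1.97, 3.85, 4.00, 0.120, 22.7 and 0.287 in MxB, so the crosses that were apart in kernels were close at 10 DAP. The pair GRMZM2G368151 and GRMZM5G807602 and the pair GRMZM2G055704 and GRMZM5G802002 were also higher in BxM. GRMZM2G067575 (log2 -1.81, SE 0.351, edgeR adjusted p = 0.0298) and GRMZM2G326235 (log2 -1.25, SE 0.290, edgeR adjusted p = 0.0481) were higher in MxB. GRMZM2G067575 gave 2.04, 4.89, 7.41, 0.228, 4.77 and 0 in BxM and 10.6, 10.1, 27.5, 0.0752, 16.5 and 0 in MxB. At 0 DAP these differences lie between the 2 mothers' own unpollinated kernels. The count fell from 9 to 2 without BxM at 0 DAP and to 4 without MxB at 0 DAP or without MxB at 5 DAP.

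Lists drawn up for ovules, carpels, the nucellus or the kernel coat were read for how far the pattern reached beyond the set. They were filled by gene name, so a family such as the MADS-box genes can hold genes of other tissues. The table names 31 MADS-box models, of which 30 had counts summing to at least 100, and m1 was the only member among them. The summed signal of the 31 was 3421, 4405, 4298, 104, 493 and 167 in BxM and 3164, 3258, 4128, 115, 883 and 181 in MxB. A score above 1 was reached by 14 of the 30, but the other 13 failed the condition on the level at 10 DAP in at least one cross. At 10 DAP these 13 stood at 6.23% to 20.2% of the lower of their 3 and 5 DAP levels in BxM (median 10.2%) and at 9.31% to 53.6% in MxB (median 22.1%). The members' medians on the same measure were 52.3% and 73.1%. Of these 13, zag2, known from ovules, gave 266, 346, 332, 4.28, 51.8 and 0.614 in BxM and 269.9, 290.0, 289, 3.25, 97.8 and 1.00 in MxB. bde1, which acts in the floral meristem, gave 138, 77.3, 90.2, 0.713, 12.7 and 0.0944 in BxM and 181, 129, 149.6, 1.47, 69.4 and 0.0717 in MxB. Both repeated the course of m1 with a lower return, larger in MxB than in BxM. On the same measure both stood above the median of the 13 in each cross, and bde1 was the highest of the 13 in MxB.

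Of the 29 MADS-box models other than m1, 22 were lower and 1 higher at 7 than at 5 DAP by edgeR's test, against 14.8% and 10% of all models. At 10 DAP 14 were higher and 0 lower than at 7 DAP, against 2.83% and 0.962%, and at 15 DAP 18 were lower and 2 higher than at 10 DAP, against 14% and 3.73%. Their median log2 changes were -5.93, 2.25 and -4.75, against 0.00, -0.05 and -0.37 over all models. The count of 14 fell to 4 without BxM at 7 DAP, to 5 without MxB at 7 DAP and to 9 without MxB at 10 DAP. The table gives the name MADS7 to 2 of these models, which may not be independent.

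**Figure D5:**
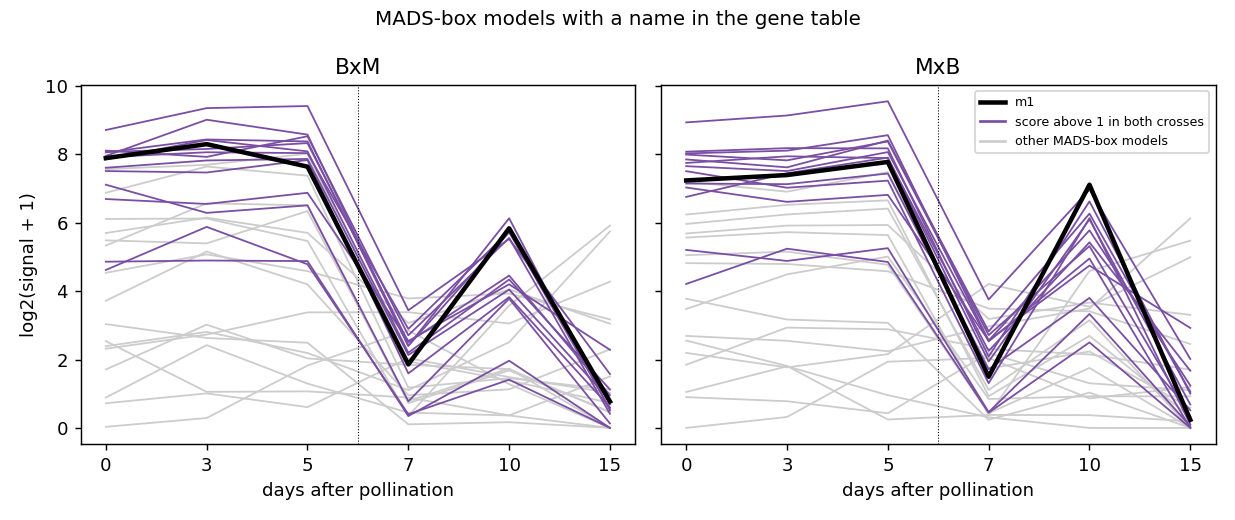
Signal of the 30 named MADS-box models by age in BxM (left) and MxB (right), on a log2(signal + 1) axis. The black line is m1, purple lines are the 13 other models with a score above 1 in both crosses, and grey lines are the rest. The purple lines fall at 7 DAP, rise part of the way at 10 DAP and fall again at 15 DAP, with m1 at 56.3 and 138 at 10 DAP.

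Other lists of that kind took different courses. The summed signal of the 7 YABBY models was 90.1, 142, 173, 6.48, 18.9 and 0.472 in BxM and 61.2, 106, 175, 5.43, 44.1 and 3.94 in MxB. At 10 DAP the member YAB5, chosen by the rule, held 15.8 of the 18.9 in BxM and 38.95 of the 44.1 in MxB. Of the 6 other than YAB5, 3 were lower at 7 than at 5 DAP by edgeR, against 14.8% of all models. At 10 against 7 DAP 0 of these 6 were higher, against 2.83%, with a median log2 change of -2.74 against -0.05. YAB11 read 0.652 and 0.587 at 7 DAP and 2.46 and 5.06 at 10 DAP, whereas YAB6 read 0.486 and 0.331 at 7 DAP and 0.123 and 0.0982 at 10 DAP. Of the 3 listed cutin, wax and lipid transfer genes only LTP3, which codes for a lipid transfer protein, had signals above 5 in any library. LTP3 gave 221, 1044, 551, 15.1, 4.67 and 0.803 in BxM and 177, 579, 763, 17.3, 1.90 and 0.215 in MxB, with no return at 10 DAP. The 15 listed genes of lignin and phenylpropanoid synthesis summed to 951, 1970, 1650, 184, 276 and 333 in BxM and to 456, 1379, 1587, 199, 502 and 273 in MxB, with 9 of the 15 lower at 7 than at 5 DAP, 2 higher at 10 than at 7 DAP and 4 lower at 15 than at 10 DAP, against 14.8%, 2.83% and 14% of all models. Flavonoid models summed to 11.3 and 12.8 at 7 DAP and to 17.9 and 13.0 at 10 DAP, in BxM and MxB. Cellulose synthase and expansin models summed to 1360 and 1262, then to 1097 and 1253. The photosynthesis list, pep4 among it, summed to 819 and 828, then to 1560 and 1409. Other than members, 0 of 10, 2 of 22 and 1 of 23 models of these lists were higher at 10 than at 7 DAP by edgeR, against 2.83%.

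The 9 listed proteases of the nucellus and of cell death, mir3 among them, rose in sum from 7 to 10 DAP, with 372, 893, 701, 159.5, 356 and 46.1 in BxM and 339, 548, 927, 159.4, 412 and 99.4 in MxB. Part of that rise was mir3, chosen by the rule, which went from 7.21 to 96.4 in BxM and from 7.76 to 54.4 in MxB. Of the 7 tested other than mir3, 5 were lower and 2 higher at 7 than at 5 DAP, against 14.8% and 10% of all models, 1 was higher at 10 than at 7 DAP, against 2.83%, and 5 were lower at 15 than at 10 DAP, against 14%. The cysteine protease ccp1 held a large part of the sum, with 91.2 and 90.9 at 7 DAP and 145 and 240.2 at 10 DAP. see2b, of the legumain proteases, read 2.32 and 1.65 at 7 DAP and 62.5 and 34.7 at 10 DAP. mir2, related to mir3, went the other way, with 3.26 and 4.62 at 7 DAP and 2.29 and 1.70 at 10 DAP.

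Markers of the embryo and of the endosperm were read beside these. The 11 listed embryo models summed to 49.2, 21.7, 15.6, 54.3, 502 and 1078 in BxM and to 97.2, 39.2, 30.2, 93.1, 253 and 428 in MxB, with higher sums at 10 than at 7 DAP. At 15 DAP the globulin gene glb3 alone held 1026 and 372 of the sum. Of the 10 embryo models tested, 4 were lower and 1 higher at 15 than at 10 DAP, against 14% and 3.73% of all models, with a median log2 change of -3.48 against -0.37, and 1 was higher at 10 than at 7 DAP, against 2.83%. The transfer layer list, with betl and meg genes of the endosperm base, summed to 12593 and 4561 at 7 DAP and to 2169 and 3716 at 10 DAP, in BxM and MxB. The endosperm libraries carried the defining genes of their labelled tissue, since zeins, the storage proteins of the starchy endosperm, summed to 390 and 1996 at 7 DAP, 23937 and 14545 at 10 DAP and 241725 and 162134 at 15 DAP, against 3.84 to 95.3 in the kernel libraries. The part of any of these tissues in the members' signal at 10 DAP was not tested.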

How the data were processed

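Whole kernels and endosperm of reciprocal B73 and Mo17 crosses were sequenced, with 1 library per cross and age and 12 in all. The authors deposited read counts per gene model, and Bowtie and bedtools are named per the submitters' processing notes, with no role or version. No genome build, annotation release or strand setting was given in the sources used here. Count column headers name B73, and how well Mo17 reads mapped was not tested. The deposited signal was made by the authors with edgeR's TMM factors and scaled to RPM, per the note deposited with the tables, and within each library it was a constant multiple of the counts.

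The rule and the described levels used the signal, with a pseudocount of 1 in every log2 ratio, and all tests used the counts. The tests ran in edgeR 4.0.16 under R 4.3.3 (filterByExpr, TMM, glmQLFit, glmQLFTest, Benjamini-Hochberg adjustment over all models tested, threshold 0.05), and the SE of a log2 fold change came from its F statistic. Age steps were fitted on all 12 libraries with cross as a term, the cross difference on the 6 kernel libraries with age as a term, and the interaction on the 8 libraries of 0, 3, 5 and 10 DAP. DESeq2 1.42.0, upper-quartile factors, no filter on low counts, other sets of ages and leaving out each library were alternatives. The tests were checked on simulated counts. Overlapping models can hold the same reads, and no model was removed for it.

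The members and the gene lists were chosen with earlier results of these data known. All members could be named; those described in full are the 20 largest scores, members on a planned list, members past the threshold of the cross tests and models at the edges of the rule. Members with a gene name were added to these after their values were seen, as were the families described beside them. No sequence was used here. The result of 1 named member is not reported here.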

Additional observations from a re-analysis of the deposited data

Results flagged for a closer look

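The members' median log2 change from 3 to 5 DAP was -0.47 in BxM (-0.4678 unrounded) and 0.16 in MxB (0.1634 unrounded), so the crosses went in opposite directions. The difference between the crosses in this step was not tested. The members' median log2 ratio of BxM to MxB was 0.41 at 3 DAP (0.4093) and -0.41 at 10 DAP (-0.4109), so the higher cross changed between the ages. The difference between these 2 ages was not tested. In the test of 10 DAP against all 3 kernel ages, edgeR called 0 members, 18 had an unadjusted p under 0.05, and DESeq2 called 2.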

How the results depend on the processing

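No paired analysis was possible because the labels give no replicate numbers and each cross and age has 1 library. The set depends on the pseudocount: 374 models met the rule with 0.1 and 58 with 5, which kept 57 of the 150 members. With 0.5 of the 3 and 5 DAP level required at 10 DAP, 84 models met the rule and 71 members were kept, and with no minimum 368 met it and 78 were kept. The cross test called 15 members with DESeq2, 5 with kernels of 3 and 5 DAP only and 0 with 10 DAP added, and leaving out 1 library gave 2 to 11. The step from 0 to 3 DAP gave 27 with DESeq2, 4 with no filter and 0 to 20 with 1 library left out. The step from 3 to 5 DAP gave 8 and the interaction 2 with DESeq2, while edgeR gave 0 for the step without each of the 4 libraries of 3 and 5 DAP and 0 for the interaction without each of the 6 kernel libraries. The interaction could not be fitted without either 10 DAP library. The MADS-box count at 10 against 7 DAP was 4 to 14 with 1 library left out. The cause of these changes was not tested. The median ratios of 10 to 5 DAP stayed within 1.5 times of the values given in every alternative run. For the 10 single members with a called test, 69 alternatives kept the call, 38 lost it and 0 reversed its direction. The 10 include pairs with nearly the same counts, whose alternatives were counted for each model, and the alternatives share most libraries, so they are not independent. At 15 DAP the median member had 7 or 10.5 counts, which limits what can be said of levels there.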
